A study of Mus musculus with 9 samples.

Results

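The 10 genes described here, *Ptprc*, *Laptm5*, *Itgam*, *Tyrobp*, *Cd14*, *Cd74*, *Adgre1*, *Aif1*, *Cd68* and *Csf1r*, are commonly read as markers of leukocytes and macrophages. They were taken from the tables by symbol, and all 10 are among the 14443 symbols listed in all 3 deposited tables. The samples were neonatal rat ventricular myocytes (NRVMs), primary cells taken from the ventricles of newborn Sprague-Dawley rats, kept in culture for 48 h and then infected with an adenovirus at a multiplicity of infection of 50. All groups received a virus, carrying LacZ (a bacterial enzyme that served as the control), Nrf1 or Nrf2, with 3 libraries per group. The organism field of the labels names the mouse, whereas the strain, the cell type and the rat MHC symbols in the tables are those of the rat. The labels do not say whether the 3 libraries of a group came from separate cultures, so the p-values given here measure the spread between these libraries, which may be technical.

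A culture of ventricular cells from a newborn heart holds, besides myocytes, fibroblasts, endothelial cells and resident macrophages that were not removed by the isolation. Cardiac macrophages clear dying cells, sense microbial products through surface receptors, and depend for their survival on the receptor encoded by *Csf1r* and its ligands. Nrf1 and Nrf2 are related transcription factors of the Cap'n'Collar family, known for control of proteasome and antioxidant genes. The comparisons ask how the transcripts of these leukocyte markers stood in the whole culture after overexpression of each factor. In bulk RNA, fewer cells of a type and less RNA per cell cannot be told apart.

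The tables give a mean normalised count per group, scaled within each pair of groups, and the whole reads in each library were solved from these means. The libraries are called a, b and c from the deepest to the shallowest within a group, and these letters are not tied to the replicate numbers of the labels. Solved reads ranged from 7874370 to 11959747 per library. The 10 markers together held 1207 to 1703 reads per library in LacZ, 764 to 855 in Nrf1 and 924 to 1064 in Nrf2, and single markers held 14 to 394 reads per library. *Nfe2l2*, which encodes Nrf2, stood at 68031 to 79249 normalised counts in Nrf2 libraries and at 3425 to 3513 in LacZ libraries. *Nfe2l1*, which encodes Nrf1, was not analysed here, so the overexpression of Nrf1 was not checked in these libraries. LacZ library b stood apart for these markers: it was the highest of its group for 9 of the 10 (all but *Aif1*). Each count of markers called against LacZ was therefore also taken without it, and stayed at 9 with Nrf1 and 9 with Nrf2.

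With Nrf1, 9 of the 10 markers fell against LacZ and *Csf1r* did not. The falls ranged from 2.16-fold for *Laptm5* to 3.66-fold for *Adgre1*, as ratios of the group means. A gene was called when its means differed by more than 1.5-fold and its limma adjusted p was under 0.05; this was met in the lower direction by 17.1% of the 11433 genes tested (18.1% by the ratio alone). Of these genes, 34.4% had all 3 Nrf1 libraries below all 3 LacZ libraries, and 9 of the 10 markers did. The median log2 ratio of the 10 markers was -1.53, while that of all genes whose mean reached 10 was 0.00.

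**Figure D1:**
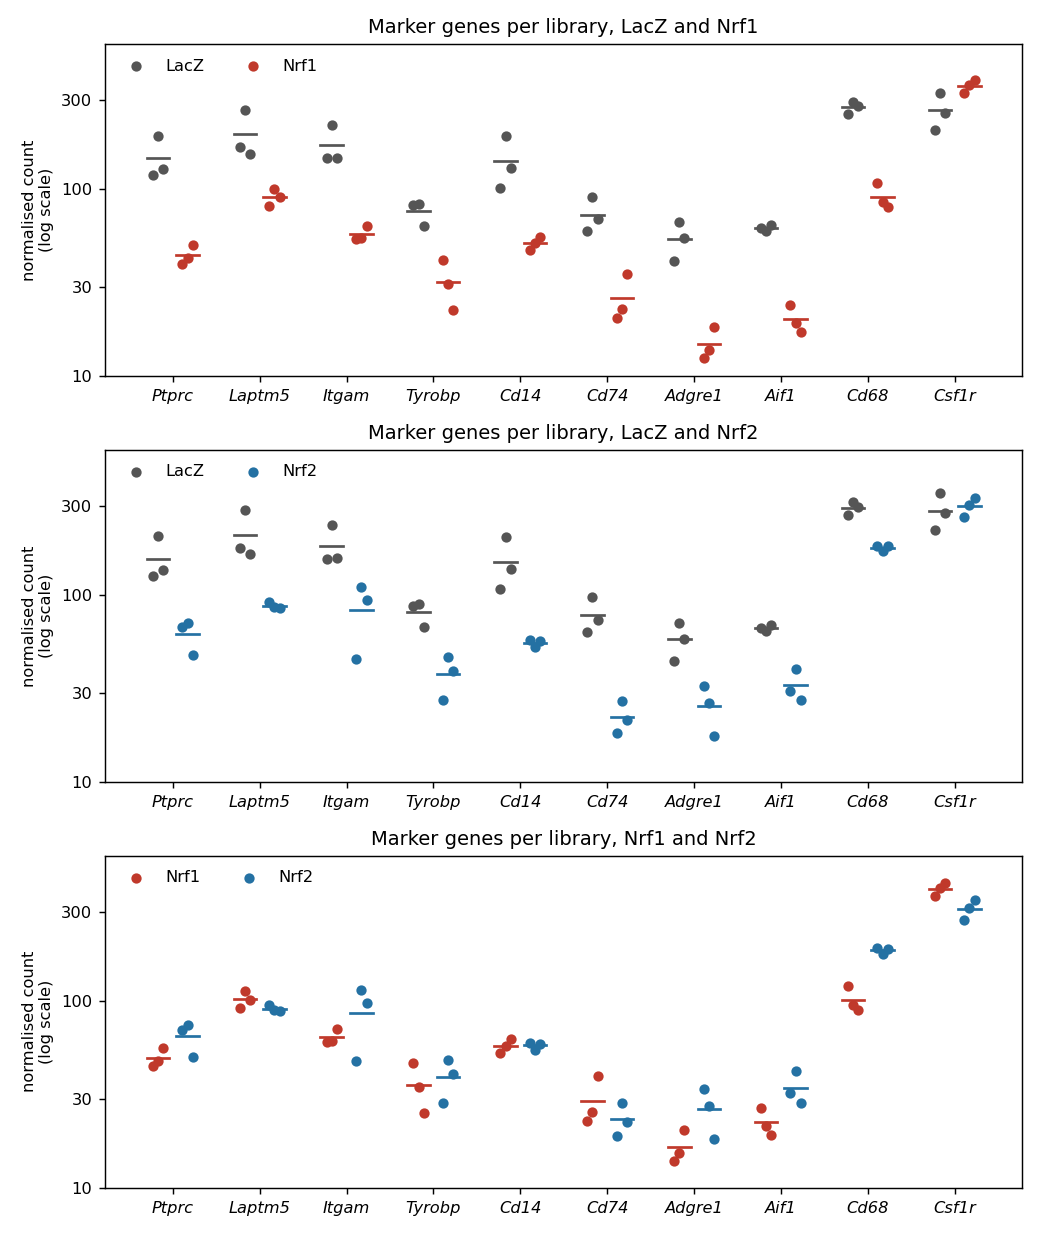
Normalised counts (log axis) of the 10 marker genes in each library, with LacZ and Nrf1 in the upper panel, LacZ and Nrf2 in the middle and Nrf1 and Nrf2 in the lower; points are libraries, set from left to right as a, b and c, and bars are group means. In the upper and middle panels the groups are apart for 9 genes and overlap for *Csf1r*.

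*Ptprc* encodes CD45, the membrane phosphatase carried by all nucleated blood cells. It measured 119, 193 and 128 normalised counts in LacZ libraries a, b and c, and 40.1, 43.1 and 50.5 in the Nrf1 libraries. Every Nrf1 library lay below every LacZ library, and the log2 fold change was -1.68 (SE 0.17, limma adjusted p = 4.52e-07). *Laptm5*, a lysosomal membrane protein of blood cells, measured 168, 267 and 155 in LacZ and 82.0, 101 and 91.3 in Nrf1. Its fall was the smallest of the 9, with a log2 fold change of -1.07 (SE 0.16, limma adjusted p = 3.41e-05).

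The markers that act in adhesion, sensing and antigen presentation fell by similar amounts. *Itgam*, the alpha chain of the complement receptor CR3, went from 147, 222 and 147 in LacZ to 54.3, 55.1 and 63.3 in Nrf1 (log2 fold change -1.55, SE 0.15, limma adjusted p = 3.33e-07). *Tyrobp*, an adaptor that carries signals from activating receptors of myeloid cells, went from 82.3, 83.5 and 63.7 to 41.9, 31.2 and 22.5 (-1.28, SE 0.21, limma adjusted p = 7.53e-05). For *Tyrobp* the highest Nrf1 library and the lowest LacZ library were closest together, and they still did not overlap. *Cd14*, a co-receptor for bacterial lipopolysaccharide, measured 101, 192 and 130 in LacZ against 47.2, 51.4 and 55.8 in Nrf1 (-1.40, SE 0.19, limma adjusted p = 7.87e-06). *Cd74*, the invariant chain that guides MHC class II molecules, measured 59.6, 90.9 and 69.3 against 20.5, 22.9 and 35.4 (-1.48, SE 0.23, limma adjusted p = 3.05e-05).

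Among the genes used most often for macrophages, *Adgre1*, which encodes the F4/80 antigen, had 41.6, 66.6 and 54.7 normalised counts in LacZ and 12.5, 13.8 and 18.3 in Nrf1. These Nrf1 values rest on 14, 15 and 17 reads, the fewest of any marker, and the log2 fold change was -1.83 (SE 0.24, limma adjusted p = 7.08e-06). *Aif1*, the actin-binding protein IBA1, measured 62.5, 60.2 and 64.8 in LacZ and 24.1, 19.3 and 17.2 in Nrf1 (-1.62, SE 0.20, limma adjusted p = 2.87e-06). *Aif1* had the narrowest spread in LacZ, where its highest library exceeded its lowest 1.08-fold. *Cd68*, a lysosomal glycoprotein of phagocytes, measured 252, 295 and 278 in LacZ and 108, 85.3 and 80.5 in Nrf1 (-1.59, SE 0.12, limma adjusted p = 7.5e-09).

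*Csf1r*, the receptor for the macrophage growth factors CSF1 and IL-34, measured 209, 329 and 257 in LacZ and 326, 362 and 385 in Nrf1. The groups overlapped through LacZ library b, which lay just above Nrf1 library a. The log2 fold change was 0.45 (SE 0.12, 95% interval 0.19 to 0.71, limma adjusted p = 0.00404, reached in this direction at any fold by 34.3% of the genes tested), and the ratio of means of 1.35 stayed under the 1.5-fold that a call required. Without LacZ library b the log2 fold change was 0.62 (limma adjusted p = 1.92e-05), which passes 1.5-fold (0.58 on the log2 scale), and without LacZ library a it was 0.30 (limma adjusted p = 0.0184), so the size of this difference depended on both libraries.

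**Figure D2:**
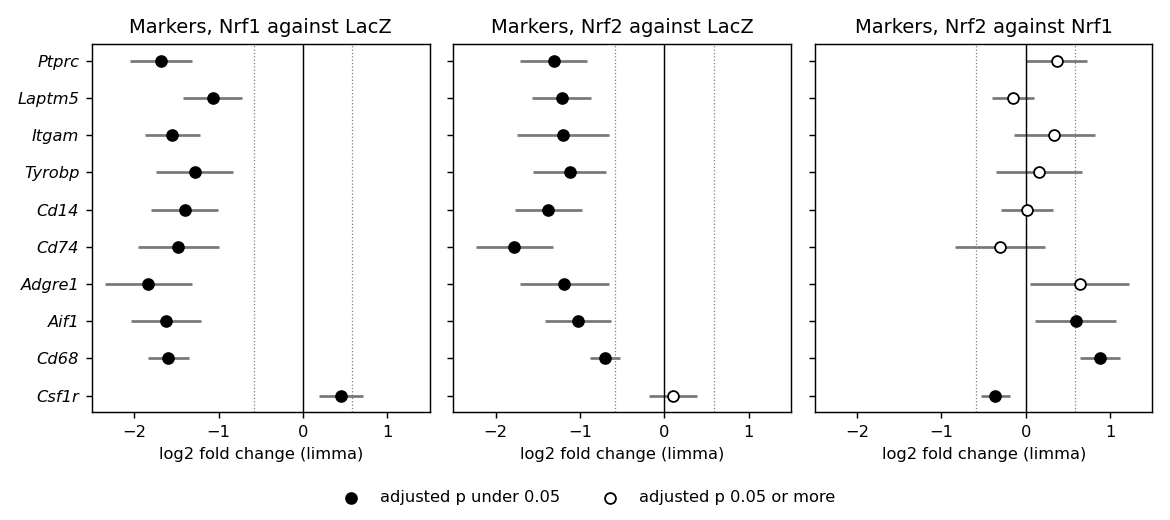
Log2 fold changes of the 10 markers from limma with their 95% intervals, in the comparisons of Nrf1 with LacZ, Nrf2 with LacZ and Nrf2 with Nrf1; dotted lines mark 1.5-fold in either direction and open points an adjusted p of 0.05 or more. The intervals of 9 markers lie below 0 against LacZ in both left panels, that of *Csf1r* lies above 0 with Nrf1 and spans 0 with Nrf2.

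With Nrf2 as well, 9 of the 10 markers were lower than in LacZ. The call rule was met in the lower direction by 9.66% of the 11602 genes tested (10.9% by the ratio alone), and 30% of these genes had every Nrf2 library below every LacZ library, which 9 of the 10 markers did. The median log2 ratio of the markers was -1.16, and the range of the falls was wider than with Nrf1, from 1.63-fold for *Cd68* to 3.49-fold for *Cd74*. This comparison shares its LacZ libraries with the one above, so the 2 sets of calls are not independent of each other.

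*Cd74* measured 63.6, 97.3 and 73.9 normalised counts in LacZ and 18.3, 27.3 and 21.6 in Nrf2, with a log2 fold change of -1.78 (SE 0.21, limma adjusted p = 6.61e-06). *Cd14* went from 108, 206 and 138 to 57.5, 52.8 and 56.9 (-1.38, SE 0.19, limma adjusted p = 2.23e-05). *Ptprc* went from 127, 207 and 137 to 67.5, 71.3 and 48.1 (-1.31, SE 0.19, limma adjusted p = 3.59e-05). Of these 3 genes *Cd14* had the tightest Nrf2 group, and none overlapped with LacZ.

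*Laptm5* measured 180, 286 and 166 in LacZ and 91.7, 86.3 and 85.4 in Nrf2, a log2 fold change of -1.21. *Tyrobp* measured 87.8, 89.4 and 67.9 in LacZ and 27.5, 46.7 and 39.3 in Nrf2, a log2 fold change of -1.12. *Adgre1* measured 44.4, 71.3 and 58.4 in LacZ and 32.5, 26.4 and 17.7 in Nrf2, a log2 fold change of -1.19. All 3 passed the test, with limma adjusted p from 2.09e-05 for *Laptm5* to 0.000912 for *Adgre1*.

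*Itgam* was the most uneven marker within a group. It measured 156, 238 and 157 in LacZ and 45.8, 110 and 94.2 in Nrf2, where library b exceeded library a 2.40-fold, and the log2 fold change was -1.20 (SE 0.25, limma adjusted p = 0.00106). *Aif1* measured 66.6, 64.5 and 69.1 in LacZ and 30.8, 40.5 and 27.5 in Nrf2 (-1.03, SE 0.18, limma adjusted p = 0.000258). *Cd68* measured 268, 316 and 297 in LacZ and 184, 172 and 184 in Nrf2 (-0.70, SE 0.08, limma adjusted p = 6.9e-06). Its fall was the smallest of the 9 and the only one under 2-fold.

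*Csf1r* measured 223, 352 and 274 in LacZ and 263, 304 and 333 in Nrf2, and the groups overlapped. The log2 fold change was 0.10 with a 95% interval from -0.18 to 0.38 (limma adjusted p = 0.542), an interval that reaches 1.5-fold in neither direction. Without LacZ library b the log2 fold change was 0.27 (limma adjusted p = 0.0503), without Nrf2 library c 0.02 (limma adjusted p = 0.916), and without LacZ library a it turned to -0.06 (limma adjusted p = 0.692).

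Nrf2 and Nrf1 were then compared directly. *Cd68* was higher with Nrf2, at 191, 178 and 191 normalised counts against 120, 95.1 and 89.9 with Nrf1. Every Nrf2 library lay above every Nrf1 library, as for 31.4% of the genes tested, and the log2 fold change was 0.88 (SE 0.11, limma adjusted p = 2.59e-06). The call rule was met in the higher direction by 11.2% of the 11487 genes tested (12.3% by the ratio alone) and in the lower direction by 4.68%, and 2 of the 10 markers met it, both higher.

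*Aif1* was the other, at 32.0, 42.0 and 28.6 with Nrf2 and 26.8, 21.5 and 19.2 with Nrf1, a log2 fold change of 0.59 (SE 0.23, limma adjusted p = 0.0362). Its groups lay close together, and the adjusted p rose to 0.0754 without Nrf1 library b, 0.107 without Nrf1 library c, 0.0631 without Nrf2 library a and 0.176 without Nrf2 library b. *Adgre1* measured 33.8, 27.4 and 18.4 with Nrf2 and 13.9, 15.3 and 20.4 with Nrf1. Its log2 ratio of means was 0.68, past 1.5-fold, but the groups overlapped and the limma adjusted p was 0.0568, which fell to 0.0346 without Nrf1 library c and to 0.0161 without Nrf2 library c. Without any 1 of the other 4 libraries it rose, at most to 0.252 without Nrf2 library a, where the log2 fold change was 0.45.

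*Csf1r* differed the other way. It measured 273, 315 and 346 with Nrf2 and 364, 403 and 430 with Nrf1, with no overlap in this direction, which 32.3% of the genes tested shared, and the log2 fold change was -0.36 (SE 0.08, limma adjusted p = 0.00114), below 1.5-fold in size. By adjusted p alone, without a fold, 29.8% of the genes tested were lower with Nrf2.

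The other 6 markers did not pass the test between the factors. *Cd14* had the smallest log2 fold change of the 6 (0.01), with 59.8, 54.8 and 59.2 with Nrf2 against 52.7, 57.3 and 62.3 with Nrf1, and a 95% interval of the log2 fold change from -0.30 to 0.33. For *Laptm5* the interval ran from -0.41 to 0.09, for *Tyrobp* from -0.36 to 0.66 and for *Cd74* from -0.84 to 0.23. For *Ptprc* it ran from -0.002 to 0.73 and for *Itgam* from -0.14 to 0.82. A 1.5-fold difference thus lay within the interval for *Tyrobp*, *Cd74*, *Ptprc* and *Itgam*. *Ptprc* measured 70.2, 74.0 and 50.0 with Nrf2 and 44.7, 48.1 and 56.3 with Nrf1 (log2 fold change 0.36, limma adjusted p = 0.0817). Without Nrf2 library c its adjusted p was 0.0148, and without Nrf2 library b it was 0.281. *Itgam* measured 47.6, 114 and 97.9 with Nrf2 and 60.7, 61.4 and 70.7 with Nrf1 (0.34, limma adjusted p = 0.215), and Nrf2 library a alone lay below the Nrf1 group. Without that library the log2 fold change was 0.72 (limma adjusted p = 0.000901), without Nrf2 library b it was 0.09 (limma adjusted p = 0.753), and without Nrf2 library c it was 0.20 (limma adjusted p = 0.524).

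The different course of *Csf1r* changed the make-up of the marker reads. The other 9 markers summed to 1033, 1471 and 1091 normalised counts in LacZ libraries a, b and c and to 430, 423 and 435 with Nrf1. On the scale set with Nrf2, the same sum was 1102, 1575 and 1165 in LacZ and 556, 633 and 574 with Nrf2. *Csf1r* made up 16.8% to 19.1% of the reads of the 10 markers in LacZ, 43.1% to 47.0% in Nrf1 and 32.1% to 36.7% in Nrf2. These are shares of reads and not of transcripts per length, and the 3 ranges did not overlap.

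**Figure D3:**
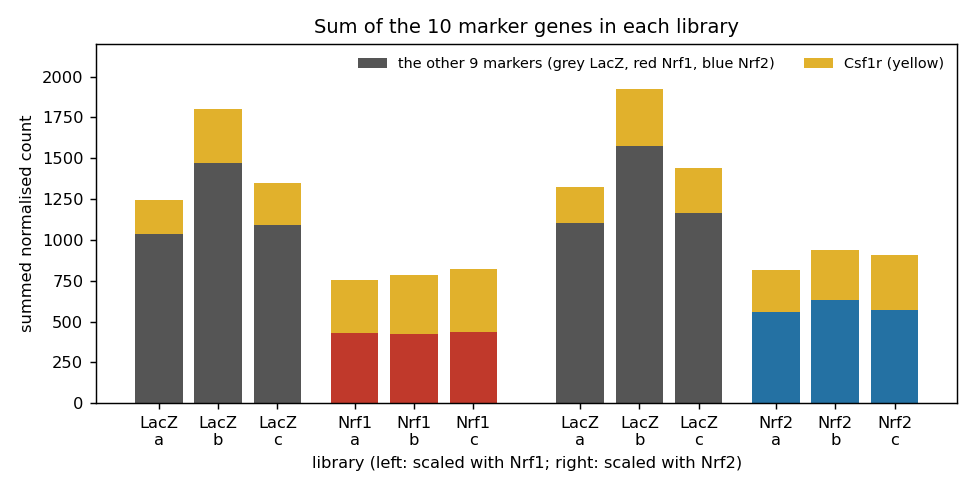
Summed normalised counts of the 10 markers in each library, with *Csf1r* in yellow on top of the other 9 markers in the colour of the group; the LacZ libraries appear once on the scale set with Nrf1 and once on that set with Nrf2. The part below *Csf1r* is 423 to 435 with Nrf1 and 1033 to 1471 in LacZ on the same scale.

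Further genes of leukocytes and of the pathways in which the markers act were taken from lists of 167 genes in all. A gene was tested when its mean reached 10 in either group of a pair. Where only 1 group reached it, this minimum fixed the direction of the difference, and such genes are kept in the counts. Among the genes named below, *Plek*, *Cd37*, *Cd52*, *Ms4a7*, *Il34*, *Cd86*, *RT1-Db1*, *Ncf4*, *Cd8a*, *Lck* and *Tpsab1* entered a comparison in this way. Among general leukocyte genes, 14 of the 16 tested fell with Nrf1 and none of those tested rose, and with Nrf2 11 of the 17 tested fell and 1 rose. *Cd52*, given below, was under a mean of 10 in both LacZ and Nrf1 and was not tested there. Of all genes tested, 17.1% fell and 11.4% rose with Nrf1, and 9.66% fell and 9.14% rose with Nrf2. The median log2 ratio of the general leukocyte genes was -1.27 with Nrf1 and -0.81 with Nrf2. *Plek*, the protein kinase C substrate pleckstrin, had the lowest ratio with Nrf1, with a mean of 28.3 in LacZ and 4.11 in Nrf1 (limma adjusted p = 3.16e-05). *Cd48*, a surface receptor of leukocytes, had the highest, with 277 and 234 (limma adjusted p = 0.0641). With Nrf2 the lowest ratio was that of the tetraspanin *Cd37*, with means of 15.5 and 4.46 (limma adjusted p = 0.00293).

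*Cd52*, a short GPI-anchored glycoprotein of leukocytes, was the gene that rose with Nrf2. It had 2, 0 and 0 reads in LacZ libraries a, b and c, 7, 4 and 4 in Nrf1 and 110, 119 and 102 in Nrf2. The reads of the Nrf2 group exceeded those of LacZ 134-fold after scaling, with a 95% exact interval from 36.8 to 1110 that covers counting error only. The reads of the Nrf1 group also exceeded those of LacZ, 6.91-fold, with an interval of the same kind from 1.61 to 62.3, on 15 reads against 2. Against Nrf1 the log2 fold change was 4.19 (SE 0.24, limma adjusted p = 8.29e-11).

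Genes of monocytes and macrophages fell in 12 of 12 tested with Nrf1 and in 11 of 12 with Nrf2, with median log2 ratios of -1.50 and -0.94. Among all genes tested, 17.1% fell with Nrf1 and 9.66% with Nrf2. The list held 19 genes, of which 4 were in no table and 12 reached a mean of 10. *Cd163*, *Cx3cr1* and *Vsig4* stayed under that mean. *Mpeg1*, a pore-forming protein of phagocytes, measured 636, 918 and 687 in LacZ and 171, 214 and 216 with Nrf1. *Lyz2*, the lysozyme of phagocytes, measured 687, 995 and 668 in LacZ and 254, 263 and 257 with Nrf2, a log2 fold change of -1.57 (SE 0.11, limma adjusted p = 3.88e-08) that was the lowest of the list with Nrf2. With Nrf1 the lowest ratio was that of *Ms4a7* (means 28.9 and 5.14) and the highest that of *Folr2*, a folate receptor of resident macrophages (33.5 and 18.7). *Lyve1*, a hyaluronan receptor, was the gene of this list that did not pass with Nrf2 (means 35.3 and 30.6, limma adjusted p = 0.518). LacZ library b was the highest of its group for *Mpeg1* and *Lyz2* too. Summed over this list, the LacZ libraries held 2046, 2047 and 2943 normalised counts, from lowest to highest, on the scale set with Nrf1. Unlike the counts of markers, the counts of list genes called were not retaken without LacZ library b.

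**Figure D4:**
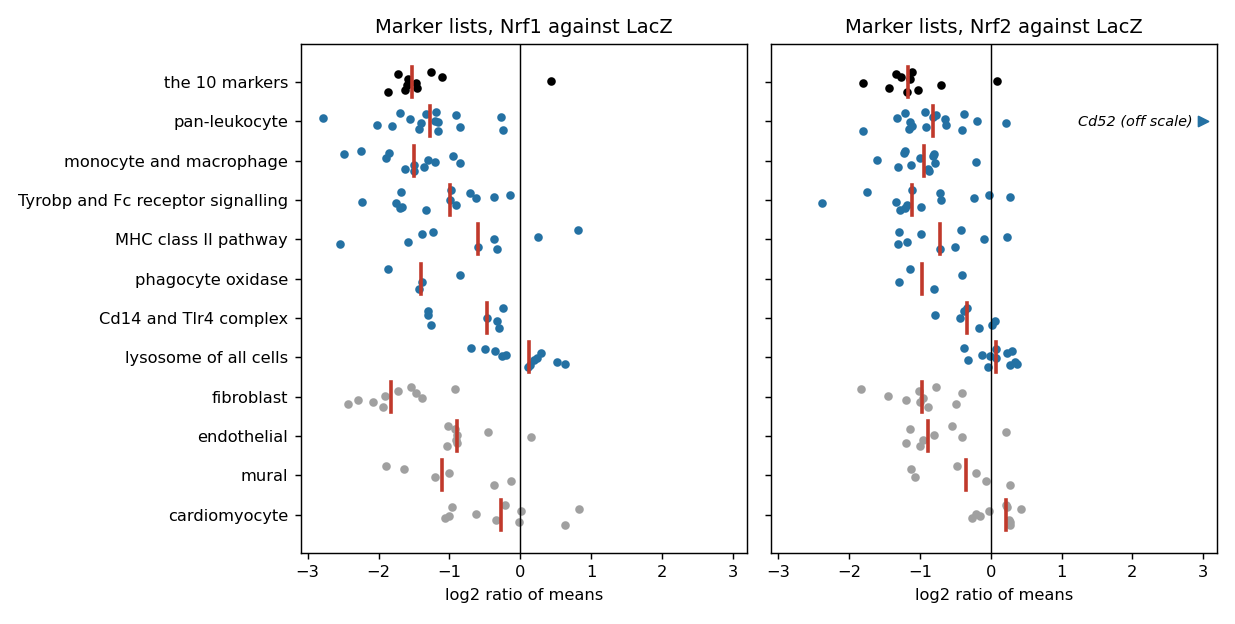
Log2 ratios of group means for genes whose mean reached 10 in a group, by list, for Nrf1 against LacZ and Nrf2 against LacZ. Each point is a gene, red bars are list medians and black points are the 10 markers. Blue points are other leukocyte and pathway lists and the lysosomal genes of all cells, and grey points other cell types. The triangle marks *Cd52*, whose ratio lies beyond the axis.

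In the pathway of *Tyrobp* and the Fc receptors, 11 of 13 genes fell with Nrf1 and 10 of 13 with Nrf2. Of all genes tested, 17.1% and 9.66% fell. None of the 13 rose, where 11.4% and 9.14% of all genes tested did. The lowest ratio with Nrf1 was that of *Fcgr3a*, an activating IgG receptor, with 64.4, 111 and 68.1 in LacZ and 16.9, 15.6 and 19.3 with Nrf1. With Nrf2 it was that of *Fcgr2b*, the inhibitory IgG receptor, with means of 94.6 in LacZ and 18.1 with Nrf2 (limma adjusted p = 3.01e-06). The Fc receptor genes are near-identical in part, so reads could be split between them. *Plcg2*, a phospholipase downstream of the adaptors, had the highest ratio with Nrf1 (means 147 and 133, limma adjusted p = 0.319), and the kinase *Lyn* had the highest with Nrf2 (470 and 570, limma adjusted p = 0.00167, under 1.5-fold).

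Of 4 genes tested among the colony-stimulating factors and their receptors, 3 fell with Nrf1 and 3 with Nrf2, and none rose. Among all genes tested, 17.1% and 9.66% fell and 11.4% and 9.14% rose. *Csf1*, a ligand of *Csf1r*, measured 1864, 2033 and 1937 normalised counts in LacZ and 1073, 1011 and 1017 with Nrf1, a log2 fold change of -0.91 (SE 0.04, limma adjusted p = 7.46e-11). With Nrf2 it measured 1242, 1144 and 1120 against 1987, 2176 and 2067 in LacZ (-0.83, limma adjusted p = 4.51e-09). *Il34*, the other ligand, had a mean of 11.0 in LacZ and 3.17 with Nrf1 (limma adjusted p = 0.00409), and 11.8 and 6.55 with Nrf2 (limma adjusted p = 0.0739). Of the related receptors, *Csf2rb* fell with both factors (limma adjusted p = 2.38e-06 and 3.31e-06), *Csf2ra* had means of 85.8 in LacZ and 64.5 with Nrf1 (limma adjusted p = 0.0303, under 1.5-fold) and 91.7 and 59.7 with Nrf2 (limma adjusted p = 0.00486), and *Csf3r*, the receptor of the granulocyte factor, had a mean of at most 2.52 in any group.

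For *Cd14* and the lipopolysaccharide receptor complex, 3 of 7 genes fell with Nrf1 and 1 of 7 with Nrf2, where 17.1% and 9.66% of all genes tested were lower. *Tlr4*, the signalling receptor, had a mean of 196 in LacZ and 79.8 with Nrf1 (limma adjusted p = 4.51e-08), while with Nrf2 it had 161 against 209 (limma adjusted p = 0.0109, under 1.5-fold). *Tlr2*, a receptor for bacterial lipoproteins, had the lowest ratio with both, with means of 115 and 46.8 with Nrf1 (limma adjusted p = 4.76e-06) and 123 and 71.1 with Nrf2 (limma adjusted p = 0.00101). The highest ratios were those of the ligase *Traf6* with Nrf1 (204 and 172, limma adjusted p = 0.0343, under 1.5-fold) and of the co-receptor *Ly96* with Nrf2 (114 and 119, limma adjusted p = 0.674). In the MHC class II pathway of *Cd74*, 7 of the 16 genes had means under 10 in both groups, among them *Ciita*, the transactivator of class II genes, at 3.36 in LacZ and 2.59 with Nrf1. Of the 9 tested, 5 fell with Nrf1 and 3 with Nrf2, beside the same shares of all genes. *Cd86*, a co-stimulatory ligand, had the lowest ratio with both factors, with means of 13.6 and 2.33 with Nrf1 (limma adjusted p = 0.000926) and 14.5 and 5.88 with Nrf2 (limma adjusted p = 0.0194). *RT1-Da*, a rat class II alpha chain, had means of 29.3 and 12.5 with Nrf1 (limma adjusted p = 0.0014), and *Ctss*, the protease that trims the invariant chain, measured 253, 371 and 249 in LacZ and 87.3, 119 and 84.8 with Nrf1 (limma adjusted p = 2.39e-07). *RT1-Db1*, a class II beta chain, had the highest ratio with Nrf1 (10.6 and 18.6, limma adjusted p = 0.0699), and the protease *Lgmn* with Nrf2 (1828 and 2136, limma adjusted p = 0.00231, under 1.5-fold). RT1 genes are members of a family with similar sequences, and their counts are uncertain.

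The phagocyte oxidase makes superoxide. Of the 4 oxidase genes analysed, 4 fell with Nrf1 and 3 with Nrf2, where 17.1% and 9.66% of all genes tested fell. None of the oxidase genes rose, where 11.4% and 9.14% of all genes tested did. The lowest ratio with Nrf1 was that of *Ncf4*, its p40 subunit (means 16.8 and 4.60, limma adjusted p = 0.00358), and the highest that of *Ncf1*, its p47 subunit (198 and 110, limma adjusted p = 3.27e-05). With Nrf2 the lowest was that of the membrane subunit *Cybb* (403 and 164, limma adjusted p = 2.69e-07), and the highest again that of *Ncf1* (212 and 160, limma adjusted p = 0.0149, under 1.5-fold).

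Lysosomal genes that most cells use served beside *Cd68* and *Laptm5*. Of 12, *Scarb2*, a lysosomal membrane protein, fell with Nrf1 (means 1622 and 1003, limma adjusted p = 7.28e-10), and *Ctsd*, the protease cathepsin D, rose (6504 and 10027, limma adjusted p = 1.59e-10). Among all genes tested, 17.1% fell and 11.4% rose with Nrf1. With Nrf2 none of the 12 met the call rule, although genes in both directions had a limma adjusted p under 0.05 at less than 1.5-fold. *Laptm4a*, a widely expressed relative of *Laptm5*, measured 7796, 7232 and 7688 in LacZ and 9065, 9272 and 9368 with Nrf1, a log2 fold change of 0.29 (limma adjusted p = 2.86e-06). The median log2 ratio of this list was 0.12 for Nrf1 against LacZ and 0.08 for Nrf2 against LacZ.

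In the direct comparison, 8 of 16 general leukocyte genes and 6 of 11 macrophage genes were higher with Nrf2 than with Nrf1, and none was lower, against 11.2% and 4.68% of all genes. *Itgal*, the alpha chain of LFA-1, measured 117, 85.9 and 97.9 with Nrf2 and 30.8, 40.9 and 26.4 with Nrf1 (limma adjusted p = 4.82e-07). *Lcp1*, the actin-bundling protein of leukocytes, measured 375, 356 and 344 against 185, 189 and 162 (limma adjusted p = 4.87e-09). *Mpeg1* and *Siglec1*, a sialic acid receptor of macrophages, were also higher, with log2 fold changes of 0.90 and 1.03. The lowest ratios of these lists were those of the GTPase *Rac2* (means 70.7 with Nrf1 and 48.4 with Nrf2, limma adjusted p = 0.0069) and of *Lyz2* (332 and 268, limma adjusted p = 0.00116), both under 1.5-fold, and the highest were those of *Cd52* and *Ms4a7* (5.73 and 18.4, limma adjusted p = 0.00217).

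Of the pathway lists, the Fc receptor list had 3 of 12 genes higher with Nrf2 than with Nrf1 and 1 lower, where 11.2% and 4.68% of all genes tested were. *Fcgr3a* had the highest ratio (means 19.3 with Nrf1 and 35.6 with Nrf2, limma adjusted p = 0.00347) and *Fcgr2b* the lowest (29.4 and 18.8, limma adjusted p = 0.027). *Fcgr1a*, another activating receptor, leaned the same way as *Fcgr2b* but did not pass (78.6 and 64.5, limma adjusted p = 0.109). Reads of Fc receptor genes could be split between them, so these differences are uncertain. Among the oxidase genes tested 1 of 3 was higher with Nrf2, the membrane subunit *Cyba* (124 and 190, limma adjusted p = 0.000121). In the lipopolysaccharide list 2 of 7 were higher, with *Lbp*, a carrier of lipopolysaccharide, highest (19.1 and 46.3, limma adjusted p = 3.73e-05). None of 3 colony-stimulating factor genes passed, and of 7 class II pathway genes *RT1-Db1* was lower (20.8 and 8.78, limma adjusted p = 0.0159).

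Markers of other blood cells were few. None of the 8 neutrophil genes reached a mean of 10 in any group, and the highest was *Camp* at 3.59. Of 15 lymphocyte genes 4 were in no table, and 2 reached a mean of 10, *Cd8a* and *Lck*, with *Lck* highest at 16.8 in LacZ. *Cd8a* was lower with Nrf1 (means 10.8 and 3.90, limma adjusted p = 0.0139) and *Lck* with Nrf2 (16.8 and 8.15, limma adjusted p = 0.0359). Of 4 mast cell genes *Tpsab1* reached a mean of 10, with means of 10.3 in LacZ and 2.59 with Nrf1 (limma adjusted p = 0.00338). In these comparisons *Cd8a*, *Lck* and *Tpsab1* reached that minimum in LacZ alone, so only a lower value with the factor could be seen. *Pf4*, a chemokine of platelets that macrophages can also express, had means of 161 in LacZ and 62.3 with Nrf1 (limma adjusted p = 3.46e-06), and of the red cell and platelet list it and *Slc4a1* were the genes that reached a mean of 10, both lower with Nrf1 and with Nrf2.

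Markers of the other cells of the culture were read against the 17.1% of all genes tested that were lower and the 11.4% that were higher with Nrf1, and the 9.66% that were lower with Nrf2. All 10 fibroblast genes fell with Nrf1 and 8 of 10 with Nrf2, and their summed normalised count ran from 116412 to 122126 in LacZ and from 29692 to 32091 with Nrf1, and from 124121 to 130727 in LacZ and 64831 to 70067 with Nrf2. Endothelial genes fell in 6 of 8 with Nrf1 and 5 of 8 with Nrf2, with sums of 3987 to 4053 in LacZ and 2363 to 2420 with Nrf1, and 4251 to 4325 in LacZ and 2302 to 2629 with Nrf2. Of the 6 genes of mural cells, 3 fell with Nrf1 and 1 with Nrf2, with sums of 5919 to 6527 in LacZ and 3923 to 4194 with Nrf1, and 6316 to 6987 in LacZ and 5442 to 5731 with Nrf2. Of 10 cardiomyocyte genes, 4 fell and 2 rose with Nrf1. With Nrf2 none met the call rule, although genes in both directions had a limma adjusted p under 0.05 at less than 1.5-fold. The sums of the cardiomyocyte genes were 157617 to 182822 in LacZ and 157103 to 158555 with Nrf1, and 168718 to 194929 in LacZ and 191755 to 195042 with Nrf2. Between the factors, 7 of 10 fibroblast genes were higher with Nrf2 and 1 was lower, where 11.2% and 4.68% of all genes tested were. Their log2 ratios ran from -0.92 to 1.94. The fibroblast sum was 33154 to 35758 with Nrf1 and 67321 to 72809 with Nrf2. The sums follow the most abundant genes: the highest mean of the fibroblast list was 92091, for *Col1a1*, and that of the endothelial list 2911, for *Eng*. The part of the cell composition in the marker differences was not tested.

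The genes nearest to the median of the 10 markers in both comparisons with LacZ (log2 ratios -1.53 and -1.16) were ranked among 8308 genes whose LacZ mean reached 100, by distance on the log2 scale. They were the olfactory receptor gene *Olr63* (-1.56 and -1.14), *Esm1* (-1.51 and -1.21), a proteoglycan of endothelial cells, *Antxr1* (-1.57 and -1.13), a collagen-binding receptor, *Ctss* (-1.58 and -1.18) and *Sod3* (-1.48 and -1.20), an extracellular superoxide dismutase. *Ctss* is also in the MHC class II list. Both axes use the same LacZ libraries, so this ranking is a description.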

How the data were processed

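RNA of 9 libraries, 3 per group, was analysed. Per the labels and the study's methods, reads were checked with FastQC 0.11.4, aligned to rat Rnor_6.0 with HISAT2 2.0.4, deduplicated with SAMtools 0.1.18 and counted with featureCounts 1.6.0. The authors named edgeR 3.20.5 for their tests. Removing duplicates from single-end reads can lower high counts, and its effect on these values was not tested. The authors deposited 3 tables, 1 per pair of groups, whose signal is the mean over 3 libraries of counts divided by size factors set within that pair. The tables also hold the authors' fold changes and p-values, which were not used, and 0 columns of single samples.

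Each group mean occurs in 2 tables with different size factors, printed to at least 10 significant digits. The size of a single read in each library was read from genes with 1 read, and whole reads per library were then solved. A single solution was found for 14442 of 14443 genes in LacZ and for 14443 of 14443 in Nrf1 and in Nrf2. Solved counts were divided by the authors' size factors, here called normalised counts, and log2(normalised count + 0.5) was tested with limma 3.58.1 (trend, R 4.3.3), 1 fit for each pair of groups, with Benjamini-Hochberg adjustment over all genes whose mean reached 10 in a group. Limma fold changes are on this scale and understate the change of low genes. Both steps were tested on simulated data. The limma simulation gave all genes a single fixed spread between libraries, narrower than that of some markers here. It therefore does not check limma at the spread of those markers. The 95% intervals are limma's.

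The planned design foresaw ratios of means without a test and reads per library where these could be solved, and limma was added after the files had been seen. Limma was run on symbols in all 3 tables. The main call was a ratio of means past 1.5, and the report's calls also require a limma adjusted p under 0.05. The markers and lists were chosen with earlier results of these data known. Named genes are the 10 markers, the genes with the lowest and highest ratio of each leukocyte and pathway list and the 5 nearest genes, lists of other resident cells are given by counts and sums, and any further gene was picked with its values in view. Genes under a mean of 10 in both groups were not tested, and 1 gene of the planned lists is not reported here. Alternatives were another scaling, pseudocount, fold or minimum mean, limma-voom, and leaving out each library. No sequence is shown, because no rat genome was used here.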

Additional observations from a re-analysis of the deposited data

How the results depend on the processing

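The 9 markers lower with Nrf1 and the 9 lower with Nrf2 stayed 9 under re-centring on the median gene, a pseudocount of 1, no minimum mean, limma-voom, scaling by total reads and each left-out library (9 to 9 markers in each comparison). A fold of 2 gave 9 with Nrf1 and 8 with Nrf2. With a mean of at least 100 required, 5 of 6 markers were lower in each of these comparisons, by ratio and by limma (5), since fewer genes were left. Among general leukocyte and macrophage genes that minimum left 8 of 9 lower with Nrf1, 9 of 11 lower with Nrf2 and 4 of 8 higher with Nrf2 than with Nrf1. In the direct comparison 3 markers were past 1.5-fold, and 2 with a pseudocount of 1. A fold of 2 gave 0. A mean of at least 100 gave 1 of 3, limma with that minimum 1, limma without a minimum 1 and limma scaled by total reads 1. Leaving out a library gave 2 to 3 by ratio and 1 to 3 by limma, with 1 without Nrf1 library b or Nrf2 library b. *Aif1* had an adjusted p of 0.0523 without a minimum, and *Adgre1* 0.0496 by limma-voom and 0.0462 after re-centring. None of the marker differences that passed the test changed sign. Of those that did not pass, 3 changed sign on leaving out a library: *Csf1r* in Nrf2 against LacZ (-0.058 without LacZ library a to 0.27 without LacZ library b), and in Nrf2 against Nrf1 *Tyrobp* (-0.070 without Nrf1 library c to 0.37 without Nrf1 library a, and -0.013 without Nrf2 library b) and *Cd14* (-0.045 without Nrf1 library a to 0.075 without Nrf1 library c, and also below 0 without Nrf2 library a or c), on the log2 scale. The median log2 ratio subtracted in re-centring was 0.05, 0.01 and -0.03. *Adgre1* rested on 14 to 17 reads per Nrf1 library.

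No paired analysis was possible because the solved libraries carry no replicate number.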
